A study of Homo sapiens with 21 samples.

Results

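FLI1 and 9 other genes of the ETS family of transcription factors were followed across the 7 groups of an RNA-seq experiment in A673 cells, a Ewing sarcoma line. The 10 genes, FLI1, ERG, ETS1, ETS2, ETV1, ETV4, ETV5, ETV6, ELK3 and ELF4, were taken by symbol from the 57820 genes of the deposited count table, and all 10 passed a low-count filter (1 count or more per library on average), which left 30549 genes to test. The experiment depleted the fusion protein EWS/FLI with an shRNA and restored it with cDNAs that carried different parts of the EWS domain, to ask which parts drive transcription. Each group had 3 libraries of 32.9 to 46.2 M counts, numbered 1 to 3, and all came from this 1 cell line.

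All cells received a retroviral shRNA on day 1 and a retroviral cDNA or empty vector on day 5, and were selected until day 16, the first virus with puromycin (2 µg/ml) and the second with hygromycin B (400 µg/ml). The iLuc cells carried the iLuc control shRNA and empty vector, so their endogenous fusion (endo-EF) was intact. In the other 6 groups the iEF shRNA, directed at the 3′UTR of the fusion transcript, was present. The iEF group carried it with empty vector, and it served as the reference for the rest. The WT-EF group expressed the wildtype EWS/FLI cDNA. In the DAF group tyrosines of hexapeptide repeats in the EWS domain were changed to alanine, in mut9 the EWS domain was shortened, in DAF-mut9 the repeat tyrosines left in mut9 were changed to alanine as well, and the del22 construct (delta22) lacked the EWS domain. Each cDNA added an N-terminal 3XFLAG tag. The DAF-mut9 columns of the count table are named mut9d, and every DAF-mut9 value rests on reading them so.

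ETS factors share a winged helix-turn-helix DNA-binding domain that recognises a GGAA core. They act as activators or repressors and often answer to growth factor signalling through the MAP kinase pathway. In Ewing sarcoma a translocation joins the amino-terminal part of EWSR1 to the DNA-binding part of FLI1, and less often to ERG or another family member. The fusion protein binds GGAA repeats as well as single ETS sites that other family members can also occupy.

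For 6 of the 10 genes (ERG, ETS2, ETV1, ETV6, ELK3 and ELF4) RefSeq promoter windows were at hand (GRCh38.p14), 18 in all, while FLI1, ETS1, ETV4 and ETV5 had no window. The 250 bases before each start were searched on both strands for GGAA. The core occurred in 18 of 18 windows, 1 to 6 times, and in 92.7% of 35116 windows of all genes, where the median count was 3. The tandem GGAAGGAA, which holds the core as 2 adjacent hits, occurred in 2 of the 18 windows, both of ETV1 and overlapping each other, and in 3.06% of all windows. The longer CCGGAAGT was in 0 of 18 windows and in 3.42% of all. Windows of 4 genes are shown 5′ to 3′ on the strand of the gene, with GGAA and its reverse complement TTCC in capitals. ERG, ELK3 and ELF4 are shown, at their most upstream start, because they were lower with endo-EF, WT-EF and mut9 than in iEF, and ETV1, at the window with the tandem, because it was higher with endo-EF. A match of letters does not show binding, and the counts per gene do not tell which start was used.
ERG (chr21:38660668-38660917, minus strand): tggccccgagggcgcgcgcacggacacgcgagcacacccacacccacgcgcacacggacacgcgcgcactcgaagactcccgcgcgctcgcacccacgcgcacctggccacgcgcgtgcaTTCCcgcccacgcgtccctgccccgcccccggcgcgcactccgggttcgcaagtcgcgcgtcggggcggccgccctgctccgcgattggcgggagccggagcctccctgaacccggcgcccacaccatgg
ETV1 (chr7:13990703-13990952, minus strand): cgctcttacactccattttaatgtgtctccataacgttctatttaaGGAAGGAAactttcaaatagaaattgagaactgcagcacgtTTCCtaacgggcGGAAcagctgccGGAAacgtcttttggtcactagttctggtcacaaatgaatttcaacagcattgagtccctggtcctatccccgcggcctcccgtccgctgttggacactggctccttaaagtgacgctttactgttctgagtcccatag
ELK3 (chr12:96194125-96194374, plus strand): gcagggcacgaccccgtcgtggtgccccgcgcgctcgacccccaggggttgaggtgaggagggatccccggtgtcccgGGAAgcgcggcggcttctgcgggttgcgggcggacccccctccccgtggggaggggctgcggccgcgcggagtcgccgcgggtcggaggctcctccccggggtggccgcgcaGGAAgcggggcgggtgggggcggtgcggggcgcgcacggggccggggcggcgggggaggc
ELF4 (chrX:130111859-130112108, minus strand): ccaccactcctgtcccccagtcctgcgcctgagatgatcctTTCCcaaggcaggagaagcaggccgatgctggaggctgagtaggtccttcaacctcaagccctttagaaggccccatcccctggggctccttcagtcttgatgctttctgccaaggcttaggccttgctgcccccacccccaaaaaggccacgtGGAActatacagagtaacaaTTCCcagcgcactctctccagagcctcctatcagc

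Levels are given in CPM, the count a gene would have in a library of 1 M counts after TMM scaling, where 1 CPM stood for 32.0 to 45.2 counts in a library. FLI1 is the most direct check of the design, because its count holds reads from the fusion transcript, from the intact FLI1 allele and from the cDNA. FLI1 (GRCh37 chr11:128556430-128683162, plus strand) lay at 20.8, 20.02 and 21.1 CPM in iEF libraries 1 to 3 and at 61.3, 60.6 and 89.0 CPM in iLuc. The rescued groups lay between these levels, at 21.9, 25.2 and 26.5 CPM in WT-EF, 28.3, 33.4 and 30.4 in mut9, 36.2, 39.8 and 35.1 in DAF, 34.6, 37.04 and 37.3 in DAF-mut9, and 41.3, 45.2 and 62.0 in del22. None of these groups overlapped iEF, and del22 library 3 alone was above the lowest iLuc library.

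FLI1 was 3.37-fold higher in iLuc than in iEF, with a log2 fold change of 1.75 ± 0.13 (SE; edgeR quasi-likelihood test with Benjamini-Hochberg adjustment over all tested genes, adjusted p = 1.33e-09), the test used throughout. It was also higher in mut9 by 0.57 ± 0.13 on the log2 scale (adjusted p = 0.00494), in DAF by 0.84 ± 0.13 (adjusted p = 0.000365), in DAF-mut9 by 0.81 ± 0.13 (adjusted p = 0.00164) and in del22 by 1.25 ± 0.13 (adjusted p = 4.85e-05). In WT-EF the log2 difference from iEF was 0.24 ± 0.13 and did not pass the test (adjusted p = 0.196), although limma on the ComBat-adjusted values called it. WT-EF libraries held less FLI1 than iLuc (log2 fold change −1.51 ± 0.13, adjusted p = 7.36e-08) and than DAF (0.60 ± 0.13 higher in DAF, adjusted p = 0.00173). The cDNAs may lack the 3′UTR, which the endogenous transcript carries and at which the iEF shRNA is directed. FLI1 levels, also those per exon length, may then understate the cDNAs beside iLuc, which was not tested.

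Among the pairs of constructs compared directly, FLI1 passed the test between DAF and WT-EF, where the ETS gene differences stand beside unequal FLI1 counts. In the other pairs FLI1 did not pass, yet its libraries did not overlap there either. FLI1 was higher in mut9 than in WT-EF, in DAF and DAF-mut9 than in mut9, and in del22 than in DAF and DAF-mut9. The part of unequal FLI1 counts in the differences of the other genes was not tested. In the exon annotation 329 bases of FLI1 are shared with antisense genes, among them SENCR, and the strand setting of the counting is not given in the sources used here. EWSR1, which supplies the other end of the fusion and whose intact allele is also counted, had a mean of 255 CPM in iEF and 329 CPM in iLuc (log2 fold change 0.37 ± 0.09, adjusted p = 0.00265), and was not called in any of the 5 rescued groups against iEF. Over the 21 libraries the genes with the highest Pearson correlation with FLI1 among 10574 genes of at least 5 CPM were SEMA3D (r = 0.845), ARHGAP20 (r = 0.843) and DDX41 (r = 0.839). These values describe libraries that fall into 7 groups and are not independent of the group levels. SEMA3D, a secreted semaphorin, stood at 11.5 ± 0.176 CPM (mean ± SD, n = 3) in iEF and 57.9 ± 16.5 CPM in iLuc.

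Between endo-EF and depleted cells, most of the 10 genes differed. The test was passed by 8 of them, 2 higher and 6 lower in iLuc than in iEF, where 18.7% of all tested genes were called higher and 22.4% lower. Their median log2 fold change was −0.59, against 0.01 over all tested genes. FLI1, whose count holds reads of the fusion transcript that the iEF shRNA depletes, and ETV1 were the genes that rose. ERG, ETS1, ETV4, ETV6, ELK3 and ELF4 fell, and ETS2 and ETV5 were not called. The heat map of changes over iEF gives the value of every gene in each condition.

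**Figure D1:**
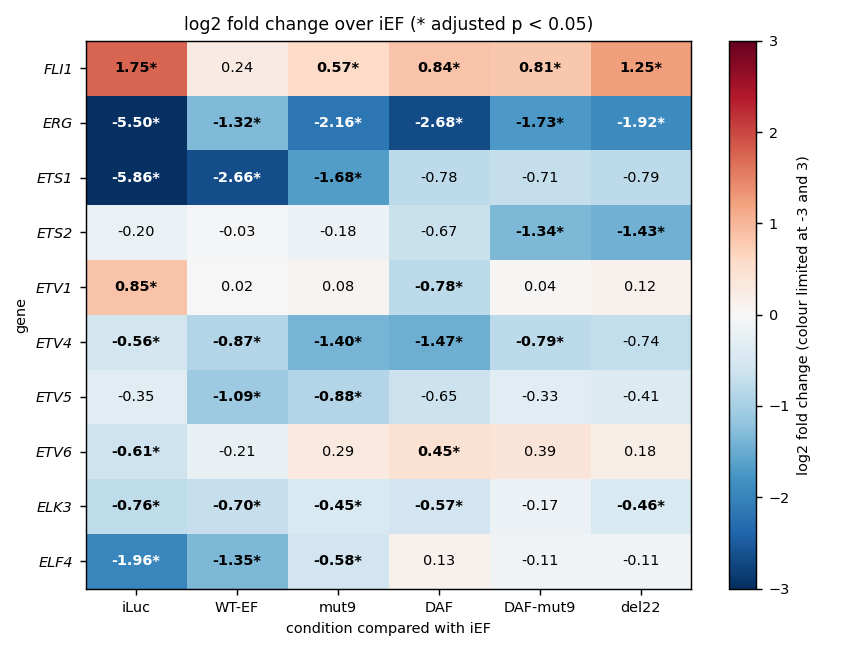
Log2 fold change of each of the 10 ETS genes (rows) in each condition (columns) relative to iEF, from the edgeR model, with values printed in the cells and an asterisk and bold type where the adjusted p was below 0.05. The colour is limited at −3 and 3, so ETS1 in iLuc (−5.86) and ERG in iLuc (−5.50) are off its scale, and FLI1 is the row that is positive in all 6 columns.

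ETS1, a MAP kinase-responsive activator expressed in lymphoid, endothelial and invasive tumour cells, changed most in CPM. Its gene lies next to FLI1 on chromosome 11 (GRCh37 chr11:128328656-128457453, minus strand), in the opposite orientation and with no shared exon bases. ETS1 stood at 233, 276 and 560 CPM in iEF, and iLuc held 7.96, 3.85 and 6.21 CPM. The lowest iEF library was far above the highest iLuc library, and iEF library 3 was itself apart from the other two. ETS1 was 57.9-fold lower in iLuc (log2 fold change −5.86 ± 0.30, adjusted p = 4.15e-11), and among 10779 tested genes with a mean of at least 5 CPM it ranked 144 from the lowest change.

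In the rescued groups ETS1 lay between these levels. WT-EF libraries held 64.8, 44.7 and 54.1 CPM, and mut9 libraries 133, 68.2 and 124 CPM, both below every iEF library and above every iLuc library. With the EWS domain mutated or absent, levels were higher, at 153, 253 and 191 CPM in DAF, 172, 220 and 243 in DAF-mut9, and 157, 238 and 200 in del22, and each of these groups overlapped iEF. Against iEF, ETS1 fell by 2.66 ± 0.29 on the log2 scale with WT-EF (adjusted p = 1.01e-06) and by 1.68 ± 0.29 with mut9 (adjusted p = 0.000384). The log2 differences for DAF (−0.78 ± 0.28, adjusted p = 0.116), DAF-mut9 (−0.71 ± 0.28, adjusted p = 0.225) and del22 (−0.79 ± 0.28, adjusted p = 0.179) did not pass. With no low-count filter all 3 were called, and for DAF the call was also made without iEF replicate 1 or DAF replicate 2.

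ELF4, an ELF-subfamily factor known from quiescence of T cells and blood stem cells, also stepped up in mean level from iLuc through WT-EF and mut9 to the remaining groups. ELF4 (GRCh37 chrX:129197930-129244691, minus strand) stood at 28.6, 26.0 and 24.9 CPM in iEF and at 5.73, 4.86 and 10.1 CPM in iLuc. In WT-EF it was at 11.7, 8.95 and 10.7 CPM, overlapping iLuc, and in mut9 at 18.9, 16.9 and 17.4 CPM. DAF (25.5, 31.2 and 30.6 CPM), DAF-mut9 (23.5, 27.1 and 22.9 CPM) and del22 (23.0, 25.0 and 25.7 CPM) overlapped iEF. ELF4 fell by 1.96 ± 0.18 (log2) in iLuc (adjusted p = 3.69e-08), by 1.35 ± 0.18 with WT-EF (adjusted p = 9.4e-06) and by 0.58 ± 0.18 with mut9 (adjusted p = 0.0344). The mut9 call was lost without iEF replicate 1, iEF replicate 2, mut9 replicate 2 or mut9 replicate 3. For DAF the log2 difference from iEF was 0.13, with a 95% interval of −0.24 to 0.51.

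ERG, the closest relative of FLI1 and the partner of EWSR1 in some Ewing tumours, was near the detection limit in all groups. ERG (GRCh37 chr21:39751949-40033704, minus strand) had 66, 37 and 76 counts in the iEF libraries (1.54, 1.16 and 2.05 CPM) and 2, 2 and 0 counts in iLuc. No iLuc library reached the lowest library of any other group except DAF library 3, which had 1 count. Summed over libraries the ratio of iEF to iLuc was 49.7, with a 95% counting interval of 19.1 to 184 that covers counting error only. The difference passed the test (adjusted p = 2.13e-07), and the fitted fold change, from so few counts, depends on the prior count. In the rescued groups ERG lay at 0.577, 0.581 and 0.737 CPM in WT-EF, 0.347, 0.344 and 0.378 in mut9, 0.437, 0.271 and 0.0313 in DAF, 0.616, 0.549 and 0.279 in DAF-mut9, and 0.521, 0.344 and 0.404 in del22.

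All 5 rescued groups were therefore below iEF in ERG with no overlap, del22 without an EWS domain included. The log2 fold changes were −1.32 ± 0.40 for WT-EF (adjusted p = 0.0153), −2.16 ± 0.43 for mut9 (adjusted p = 0.0012), −2.68 ± 0.47 for DAF (adjusted p = 0.00077), −1.73 ± 0.41 for DAF-mut9 (adjusted p = 0.0229) and −1.92 ± 0.42 for del22 (adjusted p = 0.0154). Those for WT-EF, DAF-mut9 and del22 were lost without iEF replicate 3, the library with the most ERG reads. The WT-EF call was also lost without WT-EF replicate 1 or 2, and the DAF-mut9 and del22 calls without any 1 of the construct's own libraries. All 6 comparisons with iEF share the same 3 iEF libraries, so the level of ERG, ETS1 or any other gene there enters each of them.

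**Figure D2:**
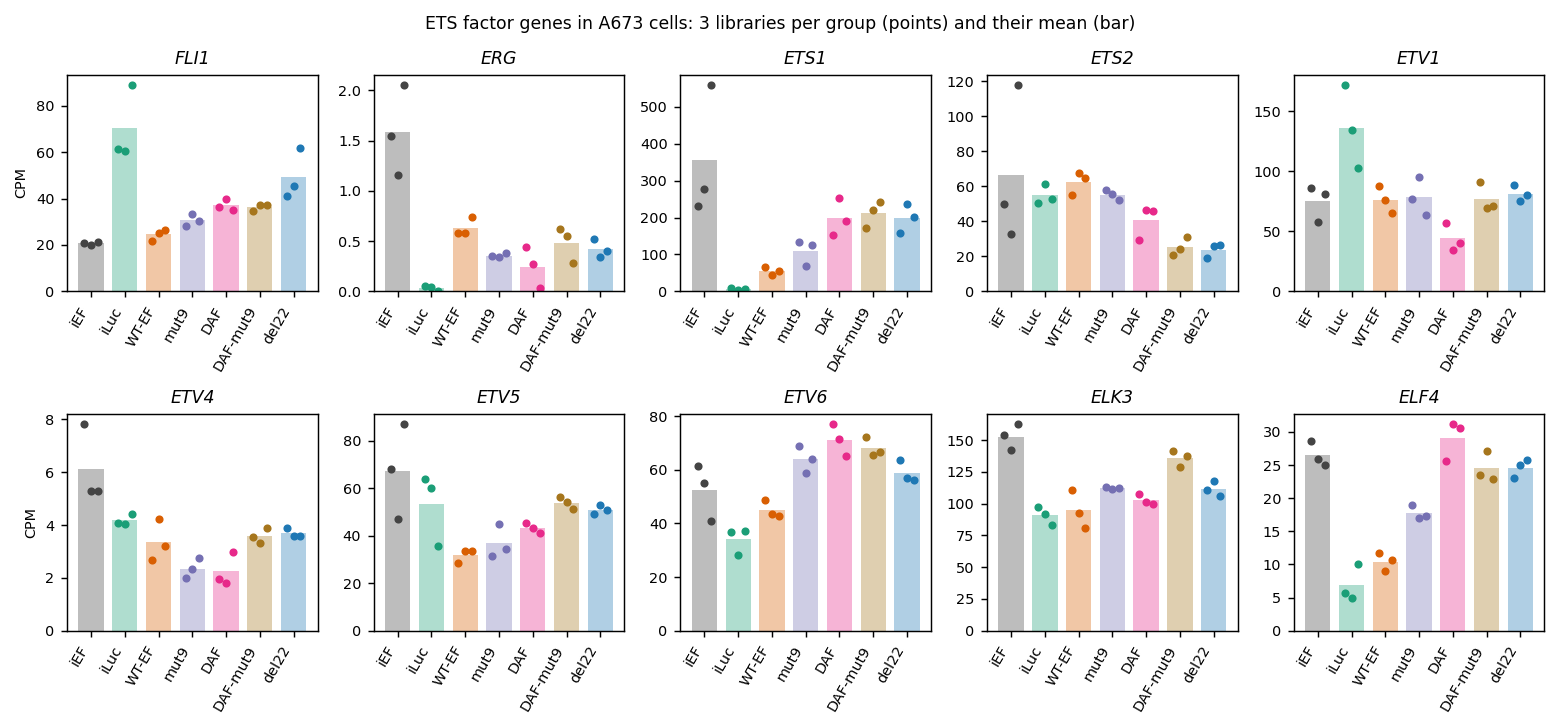
CPM of each ETS gene (1 panel each, vertical axes from 0 and of different range) in the 7 groups, with points for libraries 1 to 3 from left to right and bars for their mean. ETS1 in iLuc lies at 3.85 to 7.96 CPM against 233 to 560 in iEF, FLI1 shows the opposite order, and iEF library 3 is the highest point for ETS1 and ETS2.

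The PEA3 subfamily, ETV1, ETV4 and ETV5, comprises activators controlled by receptor tyrosine kinase and MAP kinase signalling, and ETV1 and ETV4 are rare partners of EWSR1. ETV1 was the one that rose with endo-EF. It stood at 86.1, 57.3 and 81.0 CPM in iEF and at 172, 134 and 103 CPM in iLuc, every iLuc library being higher (log2 fold change 0.85 ± 0.16, adjusted p = 0.000236). WT-EF libraries, at 87.4, 75.7 and 65.1 CPM, overlapped iEF, and the log2 difference was 0.02 with a 95% interval of −0.32 to 0.36. WT-EF was lower than iLuc by 0.83 ± 0.16 (adjusted p = 0.00094).

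DAF differed from the other constructs in ETV1. Its libraries, at 57.3, 34.2 and 40.5 CPM, were at or below every library of the other groups, with library 1 level with iEF library 2. ETV1 was lower in DAF than in iEF (log2 fold change −0.78 ± 0.16, adjusted p = 0.00435), in WT-EF (−0.80 ± 0.16, adjusted p = 0.000877) and in del22 (−0.91 ± 0.16, adjusted p = 0.00502), and mut9 was higher than DAF (0.87 ± 0.16, adjusted p = 0.00216). The call against del22 was lost with no replicate term and without DAF replicate 2. The DAF-mut9 libraries, at 91.3, 69.4 and 71.1 CPM, overlapped iEF.

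ETV4 was low throughout. Its libraries gave 7.82, 5.29 and 5.30 CPM in iEF, 4.06, 4.04 and 4.43 in iLuc, 2.67, 4.23 and 3.19 in WT-EF, and 1.99, 2.33 and 2.73 in mut9. DAF had 1.96, 1.81 and 2.97 CPM, DAF-mut9 3.54, 3.32 and 3.88, and del22 3.89, 3.60 and 3.58. Every library of the other groups was below every iEF library. ETV4 fell by 1.47 ± 0.22 (log2) with DAF (adjusted p = 0.000252), by 1.40 ± 0.22 with mut9 (adjusted p = 0.000124) and by 0.87 ± 0.21 with WT-EF (adjusted p = 0.00399). The log2 changes for DAF-mut9 (−0.79 ± 0.21, adjusted p = 0.0472) and iLuc (−0.56 ± 0.21, adjusted p = 0.0394) passed narrowly and were each lost under several alternatives, and that for del22 (−0.74 ± 0.21, adjusted p = 0.0741) did not pass.

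ETV5 had 68.0, 47.2 and 87.0 CPM in iEF and 63.7, 60.3 and 35.8 in iLuc, which overlapped (log2 fold change −0.35 ± 0.20, adjusted p = 0.172). WT-EF, at 28.5, 33.4 and 33.5 CPM, and mut9, at 31.3, 44.8 and 34.4 CPM, were below every iEF library. ETV5 fell by 1.09 ± 0.20 (log2) with WT-EF (adjusted p = 0.000267) and by 0.88 ± 0.20 with mut9 (adjusted p = 0.00402), and WT-EF was lower than iLuc (−0.74 ± 0.20, adjusted p = 0.0117). In DAF the libraries, at 45.4, 43.1 and 41.2 CPM, were also below every iEF library. The log2 difference from iEF, −0.65 ± 0.20, missed the threshold (adjusted p = 0.0514). It was called with RLE scaling, with no low-count filter, by DESeq2 and without iEF replicate 2. DAF-mut9 (−0.33 ± 0.20, adjusted p = 0.487) and del22 (−0.41 ± 0.20, adjusted p = 0.364) overlapped iEF and were not called. Exons of ETV5 share 164 bases with DGKG on the same strand, and those of ETV4 share 68 with DHX8 on the other, so reads there may be assigned to neither gene.

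ETS2, the close relative of ETS1, did not follow it. ETS2 stood at 49.6, 32.4 and 118 CPM in iEF, with library 3 far above the others, and at 50.3, 61.4 and 52.8 CPM in iLuc. The WT-EF libraries (55.1, 67.3 and 64.7 CPM), the mut9 libraries (57.6, 55.6 and 52.3 CPM) and the DAF libraries (29.2, 46.5 and 45.9 CPM) also overlapped iEF, and none of these groups passed the test. DAF-mut9, at 20.5, 24.3 and 31.3 CPM, and del22, at 19.3, 25.7 and 26.2 CPM, lay below every iEF library. ETS2 fell by 1.34 ± 0.26 (log2) with DAF-mut9 (adjusted p = 0.00639) and by 1.43 ± 0.26 with del22 (adjusted p = 0.00541). The first call was lost without iEF replicate 3, where the log2 change was −0.78, and the second was lost without del22 replicate 3.

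ETV6 and ELK3 are factors with repressor activity, ETV6 through oligomers of its pointed domain and ELK3 as a ternary complex factor that acts with SRF. ETV6 had 61.3, 54.9 and 41.0 CPM in iEF and 36.96, 28.4 and 37.2 in iLuc, every iLuc library being lower (log2 fold change −0.61 ± 0.12, adjusted p = 0.000209). It lay at 48.7, 43.5 and 42.8 CPM in WT-EF and 68.8, 58.7 and 64.2 in mut9, while DAF held 77.0, 71.5 and 65.0, DAF-mut9 72.3, 65.5 and 66.7, and del22 63.8, 56.8 and 56.3. The DAF and DAF-mut9 libraries were above every iEF library. For DAF-mut9 the log2 difference from iEF, 0.39 ± 0.11, did not pass (adjusted p = 0.0716), although DESeq2 called it. Those for mut9 (0.29 ± 0.11, adjusted p = 0.102), del22 (0.18) and WT-EF (−0.21) were not called either. ETV6 was higher in DAF by 0.45 ± 0.11 on the log2 scale (adjusted p = 0.0188), the opposite sign to iLuc. That call was lost with no replicate term, when other groups were kept out of the model, and without iEF replicate 3, DAF replicate 1 or DAF replicate 2.

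ELK3 had 154, 142 and 162 CPM in iEF and 97.0, 92.0 and 83.0 in iLuc. In WT-EF it lay at 111, 92.4 and 80.7 CPM, in mut9 at 113, 111 and 112, in DAF at 108, 101 and 99.8, in DAF-mut9 at 142, 129 and 137, and in del22 at 111, 117 and 106. The highest DAF-mut9 library, at 141.6 CPM, was just below the lowest iEF library, at 142.2 CPM, and every library of the other groups was below iEF as well. ELK3 fell by 0.76 ± 0.10 (log2) in iLuc (adjusted p = 3.2e-06), 0.70 ± 0.10 in WT-EF (adjusted p = 1.81e-05), 0.45 ± 0.10 in mut9 (adjusted p = 0.00378), 0.57 ± 0.10 in DAF (adjusted p = 0.00103) and 0.46 ± 0.10 in del22 (adjusted p = 0.017). The last call was lost when other groups were kept out of the model and without iEF replicate 3, del22 replicate 1 or del22 replicate 3. For DAF-mut9 the log2 difference was −0.17, with a 95% interval of −0.38 to 0.04. Antisense exons share 209 bases with ELK3 and 112 with ETS2.

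Counted by condition, WT-EF changed 6 of the 10 genes relative to iEF, 0 higher and 6 lower, where 11.4% of all genes were called higher and 16.9% lower. With mut9 there were 7, 1 higher and 6 lower, against 6.22% and 8.33%. DAF had 6, 2 higher and 4 lower, against 3.41% and 4.02%. DAF-mut9 had 4, 1 higher and 3 lower, against 1.26% and 2.14%, and del22 likewise 4, 1 higher and 3 lower, against 0.881% and 1.79%. The median log2 fold change of the 10 was −0.43 with del22, −0.25 with DAF-mut9, −0.66 with DAF, −0.51 with mut9 and −0.78 with WT-EF, while that of all genes stayed between −0.03 and 0.02. The higher call in mut9, DAF-mut9 and del22, and 1 of the 2 in DAF, is FLI1, to which the cDNA itself adds reads. Without iEF replicate 3, DAF-mut9 and del22 each changed 2 of the 10 genes.

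Constructs were then compared directly, which asks where a change in the EWS domain altered the ETS genes. The iEF libraries form no side of these contrasts, although they enter the shared spread and the replicate term of the model. WT-EF differed from iLuc in 7 of the 10 genes, where 18.3% of all genes were called. ERG, ETS1, ETV6 and ELF4 were higher in WT-EF and FLI1, ETV1 and ETV5 lower. ETS1 was 9.15-fold higher (log2 fold change 3.19 ± 0.30, adjusted p = 3.85e-07), so the cDNA left it well above the level with the endogenous fusion. ELF4 was higher by 0.61 ± 0.19 (adjusted p = 0.0258) and ETV6 by 0.40 ± 0.12 (adjusted p = 0.0192). The calls of ELF4, ETV6 and ETV5 were lost without iLuc replicate 1 and without iLuc replicate 2, which left 4 of the 10.

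Tyrosine substitution in the full-length fusion was read from DAF against WT-EF. DAF differed from WT-EF in 6 of the 10 genes, where 24.9% of all genes were called. ETS1 was 3.68-fold higher in DAF (log2 fold change 1.88 ± 0.29, adjusted p = 6.53e-05) and ELF4 2.79-fold higher (1.48 ± 0.18, adjusted p = 4.35e-06), both with no overlap between the groups. ETV6 was higher by 0.66 ± 0.11 (adjusted p = 0.000193) and FLI1 as given above. ETV1 was lower as given above, and ERG was lower by 1.36 on the log2 scale (adjusted p = 0.0417), a call that was lost with no replicate term and without WT-EF replicate 2, WT-EF replicate 3, DAF replicate 2 or DAF replicate 3. For ELK3 the log2 difference was 0.12, with a 95% interval of −0.08 to 0.33.

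Shortening the EWS domain gave fewer calls. Between mut9 and WT-EF 3 of the 10 genes differed, where 6.15% of all genes were called, and all 3 were higher in mut9. They were ETS1 (log2 fold change 0.98 ± 0.29, adjusted p = 0.0483), ETV6 (0.51 ± 0.11, adjusted p = 0.00956) and ELF4 (0.77 ± 0.18, adjusted p = 0.0133). The ETS1 call was also lost with RLE normalization and with no replicate term, and leaving out WT-EF replicate 2, WT-EF replicate 3 or mut9 replicate 1 left 0 calls, WT-EF replicate 1 or mut9 replicate 3 left 1. Between mut9 and DAF 2 of the 10 differed, where 6.61% of all genes were called. ELF4 was lower in mut9 (−0.71 ± 0.18, adjusted p = 0.0194) and ETV1 higher as given above, while ETS1 missed the threshold (−0.90 ± 0.29, adjusted p = 0.0699). The ELF4 call was lost without DAF replicate 2, mut9 replicate 2 or mut9 replicate 3.

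The same kind of substitution was made in the shortened fusion. DAF-mut9 differed from mut9 in 2 of the 10, where 9.83% of all genes were called. ETS1 was higher in DAF-mut9 (log2 fold change 0.97 ± 0.29, adjusted p = 0.0358) and ETS2 lower (−1.16 ± 0.26, adjusted p = 0.00506). The ETS1 call was lost with no replicate term and without mut9 replicate 2, mut9 replicate 3, DAF-mut9 replicate 2 or DAF-mut9 replicate 3. The plot of direct comparisons shows these values with their intervals.

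**Figure D3:**
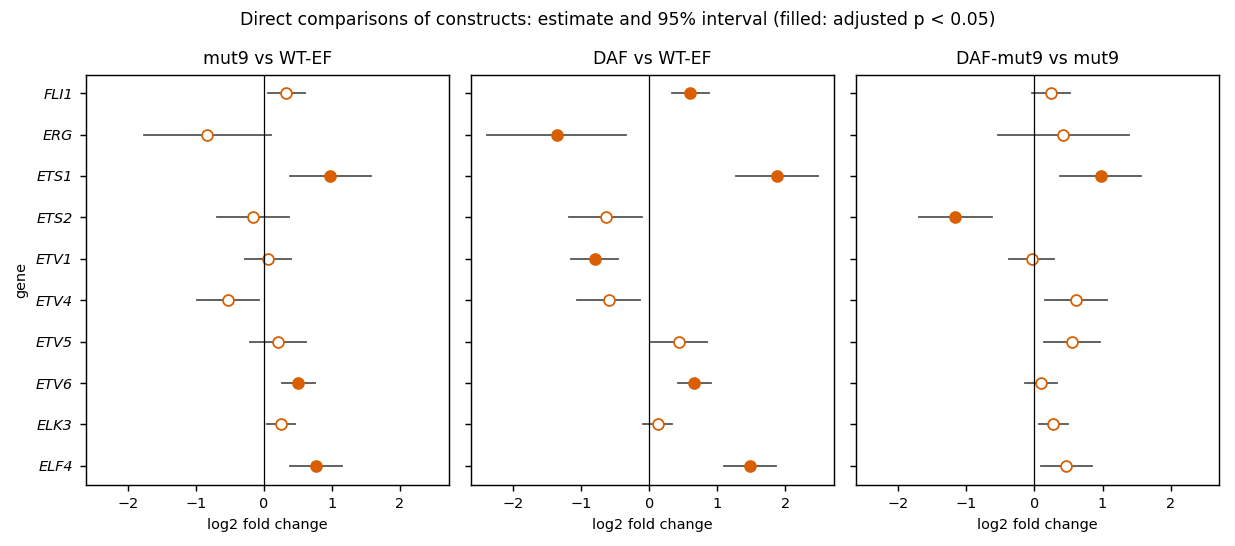
Log2 fold change of each ETS gene (rows) in mut9 over WT-EF, DAF over WT-EF and DAF-mut9 over mut9 (panels), with points for the edgeR estimate, lines for its 95% interval and filled points where the adjusted p was below 0.05. ETS1 is to the right of 0 in all 3 panels, at 0.98, 1.88 and 0.97, and ERG has the widest intervals.

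Whether tyrosine substitution acted alike in the full-length and the shortened fusion was tested as an interaction, the DAF-mut9 over mut9 difference less the DAF over WT-EF difference. The tyrosines that were changed are not the same set in both constructs. The interaction passed for 2 of the 10 genes, where 3.33% of all genes were called. It was 1.21 ± 0.31 on the log2 scale for ETV4 (adjusted p = 0.036), which was 0.61 ± 0.22 higher in DAF-mut9 than in mut9 and 0.59 lower in DAF than in WT-EF, neither of which passed on its own. It was −1.01 ± 0.26 for ELF4 (adjusted p = 0.0302), which was 0.47 ± 0.18 higher in DAF-mut9 than in mut9 (adjusted p = 0.122) against 1.48 in DAF over WT-EF. Both depended on single libraries. The ETV4 call was lost without WT-EF replicate 2, without DAF replicate 1 or 2, without any 1 of the mut9 libraries and without any 1 of the DAF-mut9 libraries, and the ELF4 call without WT-EF replicate 2 or 3, DAF replicate 2 or 3, mut9 replicate 1, and DAF-mut9 replicate 1 or 3.

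The constructs that left ETS1 and ELF4 nearest to iEF were set against del22. DAF differed from del22 in 1 of the 10 genes, ETV1, where 0.972% of all genes were called. For ETS1 the log2 difference between DAF and del22 was 0.01, with a 95% interval of −0.59 to 0.60, and for ELF4 it was 0.24, with an interval of −0.13 to 0.62. DAF-mut9 and del22 differed in 0 of the 10 genes by edgeR, where 0% of all genes were called, and in 0 by DESeq2 and by limma. At an unadjusted p below 0.05 there were 2 of the 10, FLI1 and ELK3, and 671 of all genes. FLI1 was 0.43 lower on the log2 scale in DAF-mut9 than in del22 and ELK3 0.29 higher, both with no overlap of the libraries.

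To compare genes with each other, CPM were divided by exon length in kb. In iEF the highest levels of the 10 were those of ETS1 (49.8 CPM per kb) and ELK3 (32.9), followed by ETS2 (13.4), ETV5 (11.7), ETV1 (7.80), ETV6 (7.25), ELF4 (5.06), FLI1 (2.57), ETV4 (1.75) and ERG (0.209). In iLuc ETS1, at 0.840 CPM per kb, was next to last, ELK3 (19.5), ETV1 (14.2), ETS2 (11.0), ETV5 (9.23) and FLI1 (8.76) stood highest, and only ERG was lower than ETS1. FLI1 thus passed ETS1 in level per length between iEF and iLuc. In DAF, DAF-mut9 and del22 ETS1 and ELK3 again led, and in DAF-mut9 they were level (29.6 and 29.3 CPM per kb).

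Of the summed level per length of 28 ETS genes, the 10 and 18 others, ETS1 made up 20.9% ± 6.44 (mean ± SD, n = 3) in iEF, the largest share of any of the 28. Its share was 0.529% ± 0.175 in iLuc, 4.73% ± 0.736 in WT-EF, 8.26% ± 2.66 in mut9, 14.03% ± 2.44 in DAF, 14.8% ± 2.25 in DAF-mut9 and 14.7% ± 2.10 in del22. The share of FLI1 was 1.14% ± 0.172 in iEF and 5.59% ± 1.72 in iLuc, and held 1.91% to 3.27% on average in the rescued groups. The total was 230 ± 42.5 CPM per kb in iEF and 159 ± 11.2 in iLuc.

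**Figure D4:**
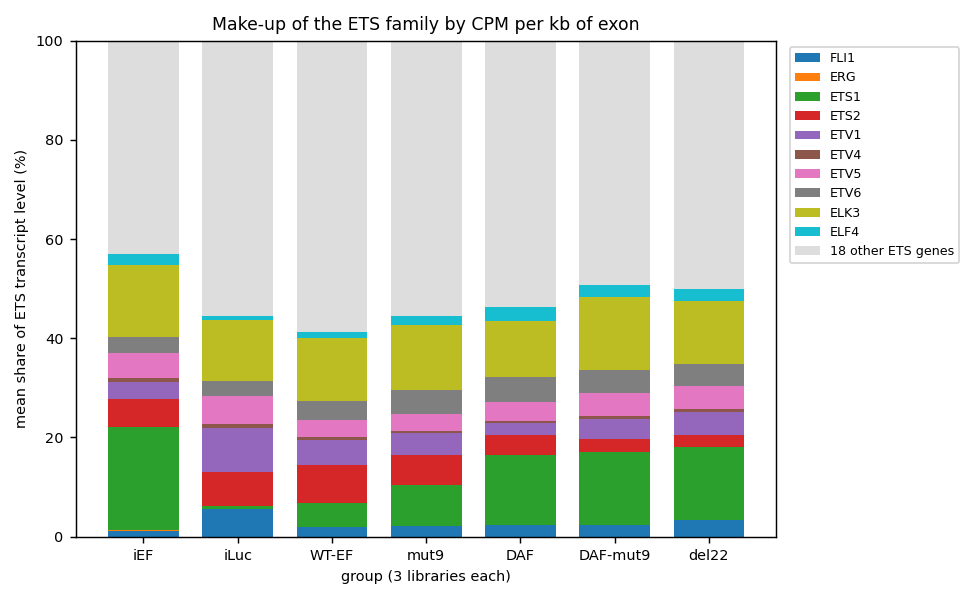
Mean share (percent, vertical axis) of each of the 10 genes and of the 18 other ETS genes together in the summed CPM per kb of exon, for the 7 groups of 3 libraries. The ETS1 segment shrinks from 20.9% in iEF to 0.529% in iLuc, and the 10 genes together held 57.0% in iEF and 44.5% in iLuc.

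Among the 18 other family members, 17 could be tested, and SPIC had 0 counts in every library. In iLuc against iEF 3 were higher and 8 lower, beside 18.7% and 22.4% of all genes, with a median log2 fold change of −0.44 against 0.01 over all genes. EHF, an epithelial ETS factor, had 15.4, 9.67 and 18.2 CPM in iEF and at most 0.111 CPM in iLuc, a ratio of 165 with a 95% counting interval of 92.2 to 332. It was below iEF in all 6 comparisons. ELF3, another epithelial member, was also lower in all 6, but iEF library 2 (10.1 CPM) stood far above the other iEF libraries (0.770 and 0.648 CPM). FEV, a serotonergic neuron factor and a rare EWSR1 partner, ran the other way, with 1 count in the 3 iEF libraries together and 1.44, 2.65 and 3.21 CPM in iLuc. It was also called higher in WT-EF, mut9 and DAF. ETV7 was lower in iLuc (log2 fold change −3.23 ± 0.47, adjusted p = 5.98e-06), and ETV3L, with 13 counts in iEF and 0 in iLuc, was called lower (adjusted p = 0.00892), with a 95% counting limit that allows a ratio down to 3.38.

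The widely expressed members moved less. ELK4 was lower in iLuc (log2 fold change −0.70 ± 0.10, adjusted p = 8.83e-06), and ELF2 (0.63 ± 0.11, adjusted p = 7.92e-05) and GABPA (0.47 ± 0.11, adjusted p = 0.00152) were higher. With WT-EF 2 of the 17 were higher and 4 lower, beside 11.4% and 16.9% of all genes. With mut9 the counts were also 2 and 4, beside 6.22% and 8.33%. DAF had 1 higher and 2 lower, beside 3.41% and 4.02%. There were 0 higher and 2 lower with DAF-mut9, beside 1.26% and 2.14%, and with del22, beside 0.881% and 1.79%. Thus EHF and ELF3, like ERG of the 10, were called lower than in iEF with every construct.

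Partners and regulators of ETS proteins were read from a list of 12 genes, of which 2 were higher and 5 lower in iLuc, beside 18.7% and 22.4% of all genes. RUNX1, which binds DNA together with ETS1, stood at 40.1, 38.3 and 68.5 CPM in iEF and at 0.205, 0.177 and 0.150 CPM in iLuc (log2 fold change −8.06 ± 0.45, adjusted p = 1.05e-12), and was lower in all 6 comparisons with iEF. Its libraries gave 5.02, 2.71 and 3.24 CPM in WT-EF and 11.7, 6.92 and 16.5 in mut9, every one below iEF. TRIB2 (−2.14 ± 0.14) and TRIB1 (−0.90 ± 0.16), adaptors of the COP1 ubiquitin ligase that degrades ETS factors, were lower in iLuc, as was ATXN1 (−1.78 ± 0.17), whose protein binds the ETV repressor CIC. GABPB2, a partner of GABPA, was higher (0.83 ± 0.14).

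Markers of other cells were read beside these results. CD14, a monocyte marker, stood at 0.817, 0.876 and 0.405 CPM in iEF, 0.0514, 0.0442 and 0.0752 in iLuc, and 3.14, 2.68 and 2.97 in DAF, with the other rescued libraries at 0.411 to 1.95 CPM. Like ETS1 and ELF4 it was lower in iLuc than in iEF (log2 fold change −3.53 ± 0.54) and higher in DAF than in WT-EF (2.62 ± 0.29). The iLuc level rests on 2, 2 and 3 counts. Unlike ETS1 and ELF4, CD14 was above every iEF library in all mut9 libraries (1.62, 1.82 and 1.54 CPM) and in all DAF libraries. The leukocyte marker PTPRC was at 0.233 to 0.871 CPM in all libraries, and the T cell marker CD3E had 0 counts in all groups but del22. Of 5 endothelial markers 4 could be matched, and their sum was 6.10 to 25.2 CPM in iEF, 0.575 to 0.977 in iLuc, 6.94 to 14.5 in WT-EF, 16.99 to 33.4 in mut9, 14.3 to 29.0 in DAF, 32.6 to 39.7 in DAF-mut9 and 24.3 to 40.5 in del22. CDH5, VWF and TEK had means below 1 CPM in every group, whereas KDR gave 24.6, 5.41 and 16.5 CPM in iEF and 0.575 to 0.796 CPM in iLuc. Of 6 Ewing sarcoma markers NR0B1, CCND1, STEAP1 and PRKCB reached a mean of 1 CPM in every group, and NKX2-2 in all but iEF. CD99 was at most 0.219 CPM in any library, with 1, 2 and 4 counts in iLuc libraries 1 to 3. Whether reads of CD99 were lost in alignment or counting was not tested, so these counts may not show its expression. The summed level of the 6 markers was 1402 to 1994 CPM in iEF, 2556 to 2765 in iLuc, and 1422 to 3085 in the rescued libraries. Most of it was CCND1, at 1312 to 1889 CPM in iEF and 1825 to 2133 in iLuc, which overlapped. NR0B1, NKX2-2, STEAP1 and PRKCB were higher in every iLuc library than in any iEF library, PRKCB at 416 to 524 against 28.3 to 42.5 CPM. The part of cells with KDR or CD14 in the results was not tested. In bulk RNA, fewer cells that express a gene and less of its RNA per cell cannot be told apart.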

How the data were processed

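RNA-seq of A673 cells was analysed from the deposited files, 21 libraries in 7 groups of 3 grouped by the sample labels. The authors prepared ScriptSeq libraries, aligned paired-end reads to hg19 with STAR (version 2.5.1b in the submitters' processing notes) and deposited raw counts per Ensembl gene from htseq-count (intersection-strict). The sources used here do not give the annotation release or the strand setting. The authors also deposited a signal table, counts adjusted for the replicate set with ComBat and not scaled for library size, which holds 9 of the 10 genes (not ETS1). Their table of log2 fold changes, standard errors and p-values was not used. The count table ends in 5 summary lines with no value. Its mut9d columns were taken as DAF-mut9.

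The tests used edgeR 4.0.16 in R 4.3.3. Genes averaging 1 count or more per library were kept (30549 of 57820). After TMM scaling, 1 quasi-likelihood model was fitted to the 21 libraries, with terms for the group and the replicate set. The replicate set was a term because the authors adjusted each set as a batch. Deviations from the group means correlated with a median r of 0.12 (−0.06 to 0.38) over 63 pairs of same-numbered libraries, 37 of them above 0.1, and of −0.08 over pairs with different numbers. Calls are at a Benjamini-Hochberg adjusted p below 0.05 over all tested genes. SE and 95% intervals are those of the fitted log2 fold change. The labels do not say whether replicates were separate cultures, and p-values measure the spread between these libraries. All 21 pairs of libraries of a group differed by more than counting noise. The model was tested on simulated data. Alternatives were RLE scaling, no low-count filter, no replicate block, DESeq2 1.42.0, limma 3.58.1 on log2 of the ComBat values plus 1, a model of only the compared groups, and leaving out each library.

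The 10 genes, the other lists and the comparisons were chosen with earlier results of these data known. All 10 genes are described. Of the 18 other family members, up to 8 called in iLuc or WT-EF against iEF are named, ordered by the size of the log2 change in iLuc, and any with at most 3 counts in every library. Of the 12 regulators, up to 5 called in iLuc are named. The 3 genes most correlated with FLI1 are named. Gene places and exon lengths come from the GRCh37 lift of GENCODE release 44, promoter sequences from RefSeq. Of the marker genes, 1 is not reported here.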

Additional observations from a re-analysis of the deposited data

Results flagged for a closer look

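The test of the interaction itself was passed by 2 of the 10 genes, where 3.33% of all genes were called. For these 2 the effect of tyrosine substitution differed between the shortened and the full-length fusion. The interaction was 1.21 on the log2 scale for ETV4 (edgeR quasi-likelihood test, adjusted p = 0.036) and −1.01 for ELF4 (adjusted p = 0.0302). Both depended on single libraries. Leaving out a library lost the ETV4 call in 9 of 18 alternatives and the ELF4 call in 7 of 18. Groups of 3 libraries were not tested for outlying samples.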

How the results depend on the processing

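No alternative reversed the direction of a called difference. Of 826 gene-level values under alternatives that kept all libraries, 771 kept their status, 14 lost a call and 41 gained one. The 771 include values that were not called in the main test and stayed so, so the losses fall on a smaller number of calls. The share of all genes called under each alternative is not given beside the counts below. A count that moved can therefore not be told from a change in calls over all genes. Counts of the 10 genes that moved by more than 1.5 times were these. When other groups were kept out of the model, 5 genes differed between mut9 and WT-EF, 6 between DAF-mut9 and mut9, 2 between DAF and del22 and 4 in the interaction. With no low-count filter there were 4 for mut9 against DAF, 2 for DAF against del22 and 5 for the interaction. DESeq2 gave 4 for DAF-mut9 against mut9 and 4 for the interaction, and limma on the ComBat values, which do not hold ETS1, gave 1 of 9 genes for DAF-mut9 against mut9. With no replicate block the counts were 1 for DAF-mut9 against mut9 and 0 for DAF against del22, where they had been 2 and 1, and against iEF 4 for del22, 3 for DAF-mut9, 5 for DAF, 7 for mut9, 6 for WT-EF and 8 for iLuc. Leaving out 1 library at a time, the counts against iEF ranged from 1 to 4 for del22, 2 to 5 for DAF-mut9, 5 to 8 for DAF, 6 to 7 for mut9, 5 to 6 for WT-EF and 7 to 10 for iLuc. They ranged from 4 to 7 for WT-EF against iLuc, 0 to 3 for mut9 against WT-EF, 5 to 7 for DAF against WT-EF, 1 to 3 for mut9 against DAF, 1 to 2 for DAF-mut9 against mut9, 0 to 1 for DAF against del22, 0 to 0 for DAF-mut9 against del22 and 0 to 2 for the interaction. Apart from the absence of ETS1 from the ComBat values, the cause of these changes was not tested. Depth limits ERG, with 37 to 76 counts in the iEF libraries and at most 30 in any other.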
